A study of Mus musculus with 9 samples.

Results

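Sphingosine-1-phosphate receptors are the 5 G protein-coupled receptors S1pr1, S1pr2, S1pr3, S1pr4 and S1pr5, and each was found by its symbol in the array annotation, as 1 transcript cluster per receptor among the 19938 genes measured. Their RNA was read in blood monocytes of tumor-free Balb/c mice aged 14 to 18 weeks, which were Ccr2-/-, Ccl2-/- or wild type, on 3 Affymetrix Mouse Gene 1.0 ST arrays per genotype. Each array held RNA pooled from 5 mice of 1 genotype, so that every p-value below measures the spread between pools and not between mice. The knockouts lacked the gene in all cells, Ccr2 encoding the receptor that draws monocytes from bone marrow to blood and Ccl2 encoding its main ligand. The cells were enriched by removing those stained for MHC class II, CCR3, Ly-6G, B220, CD8 or CD4 and keeping CD11b-positive ones. The methods define monocytes as lacking NK1.1 and CD11c, markers of natural killer (NK) cells and dendritic cells, among others, and the antibodies they list for this depletion include neither.

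Sphingosine-1-phosphate (S1P) is a lipid made inside cells by sphingosine kinases and destroyed by S1P lyase and by phosphatases. Blood and lymph hold far more of it than the tissues, and leukocytes follow this gradient through their receptors to leave lymphoid organs and marrow. S1PR1 carries T and B cells out of lymph nodes and thymus, whereas S1PR5 serves the exit of NK cells from marrow and is also needed for Ly-6Clo monocytes to be found in blood. S1PR2 and S1PR3 are widely expressed outside the blood as well, S1PR2 often slowing migration, and S1PR4 is found mostly in lymphoid and myeloid cells.

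S1pr4 and S1pr5 rose in Ccr2-/- monocytes, the 2 of 5 receptors that limma called at an adjusted p under 0.05, where it called 13.3% of all genes, 4.91% as higher. Intensities were 1.66-fold those of wild type for S1pr4 and 1.54-fold for S1pr5, and in both cases all 3 Ccr2-/- arrays lay above all 3 wild type arrays, arrays of these genotypes not overlapping for 33.9% of all genes. In Ccl2-/- monocytes no receptor passed the test, which called 0.16% of all genes, with S1pr5 at 1.32-fold and S1pr4 at 1.23-fold of wild type. S1pr2 lay slightly lower in both knockouts without passing the test, and S1pr1 varied up to 3.83-fold between arrays of the same genotype. Because these are bulk samples, more cells of a type and more RNA per cell cannot be told apart.

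**Figure D1:**
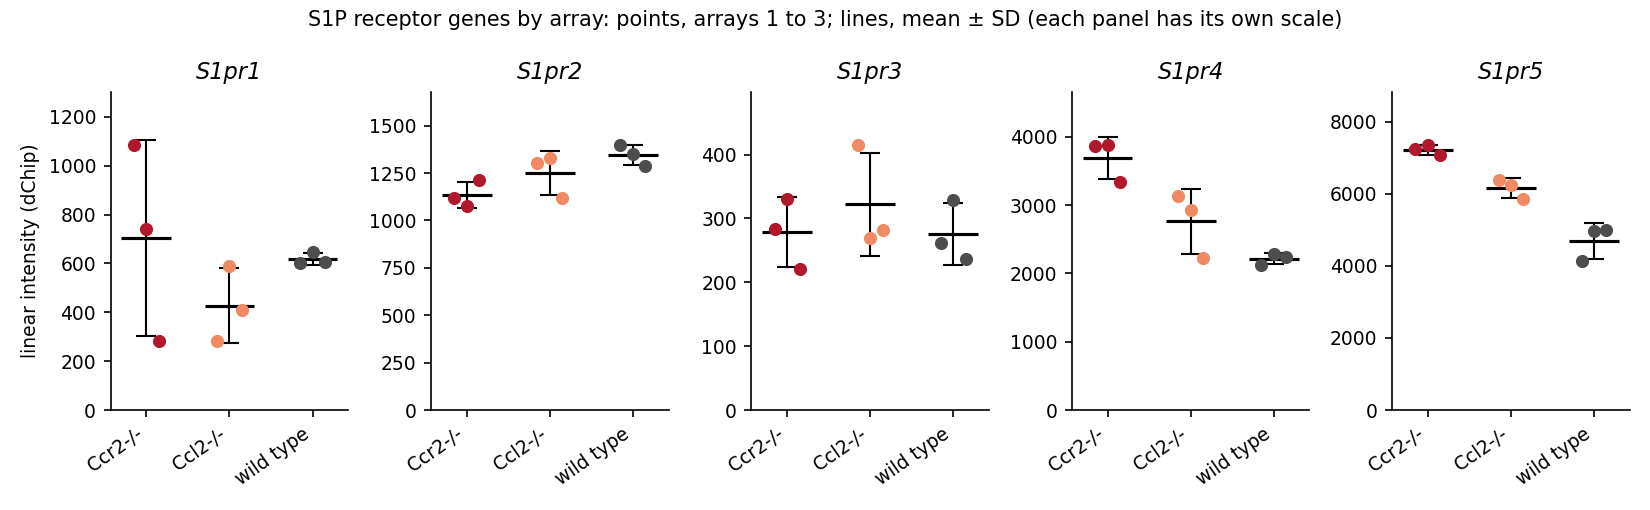
Deposited linear intensity of each S1P receptor, 1 panel each with its own scale from 0, with 1 point per array (3 per genotype) and lines for mean ± SD. The Ccr2-/- arrays lie between 7076 and 7352 for S1pr5, above all wild type arrays (4125 to 4990), while the S1pr1 points of Ccr2-/- monocytes spread between 283 and 1085.

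The promoters of S1pr4 and S1pr5 are shown because these genes were the receptors that rose. RefSeq promoter windows, 250 bases before to 50 after the annotated start on assembly GRCm38.p6, were at hand for S1pr2, S1pr3, S1pr4 and S1pr5, which is 4 of the 5 receptors. Both windows below are on the minus strand and are written 5′ to 3′ along the gene. S1pr4 lies at chr10:81500088-81500387 and S1pr5 at chr9:21248394-21248693. Capitals mark matches, on either strand, to CACCTG, an E-box bound by ZEB factors, and to CCACCC, a core bound by Krüppel-like factors (KLF), which reads GGGTGG where it lies on the opposite strand.
S1pr4: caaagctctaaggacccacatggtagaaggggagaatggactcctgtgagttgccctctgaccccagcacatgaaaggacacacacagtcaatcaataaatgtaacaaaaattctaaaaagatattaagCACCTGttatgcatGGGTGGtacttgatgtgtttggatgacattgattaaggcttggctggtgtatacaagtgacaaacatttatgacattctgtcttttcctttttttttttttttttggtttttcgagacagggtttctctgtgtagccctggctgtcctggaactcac
S1pr5: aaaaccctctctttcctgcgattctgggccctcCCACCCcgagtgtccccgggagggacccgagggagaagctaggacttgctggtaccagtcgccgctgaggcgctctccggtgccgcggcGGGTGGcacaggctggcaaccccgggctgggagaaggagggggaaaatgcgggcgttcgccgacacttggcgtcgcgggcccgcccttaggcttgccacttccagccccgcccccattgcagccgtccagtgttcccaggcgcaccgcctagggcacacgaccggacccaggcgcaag
The S1pr4 window held 1 E-box, at position -121 from the start, and 1 KLF core on the opposite strand at -107. In the S1pr5 window there were 2 KLF cores, at -217 on the gene's strand and at -128 on the opposite one, and no E-box. The T-box core TCACAC was searched on both strands and had no match in any of the 4 windows. Of the 32851 promoter windows in the table, 14.5% held the T-box core, 20.2% the E-box and 31.5% the KLF core, and no match overlapped another in these windows. In base composition the windows differed, with 41% GC and 1 CpG for S1pr4 against 69.3% GC and 27 CpG for S1pr5, beside a median of 52.7% GC over all windows. These matches are a description of letters and say nothing on binding.

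S1pr5 (transcript cluster 10591494, chromosome 9) read 7241, 7352 and 7076 in Ccr2-/- monocytes, 6390, 6232 and 5864 in Ccl2-/- monocytes and 4125, 4971 and 4990 in wild type monocytes. The 3 genotypes did not overlap and ran in the order Ccr2-/-, Ccl2-/-, wild type. How many of all genes have 3 genotypes without overlap was not counted, here or for the genes named below. Taken in pairs, genotypes did not overlap for 18.7% to 33.9% of all genes. On the log2 scale the means were 12.82 ± 0.03 in Ccr2-/-, 12.59 ± 0.06 in Ccl2-/- and 12.19 ± 0.16 in wild type monocytes (SD, n = 3 arrays each). Ccr2-/- monocytes exceeded wild type by 0.63 ± 0.09 (log2 difference ± SE, 95% interval of the fold 1.35 to 1.77), with a limma adjusted p of 0.00205. For Ccl2-/- against wild type the log2 difference was 0.40 ± 0.09 (fold 1.32, interval 1.15 to 1.51, limma adjusted p = 0.106). Between Ccr2-/- and Ccl2-/- monocytes it was 0.23 (fold 1.17, interval 1.02 to 1.35, limma adjusted p = 0.203). Neighbours in the order of genotypes were therefore not distinguished by the test, and the ends of the order were.

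S1pr4 (transcript cluster 10371217, chromosome 10) gave intensities of 3866, 3882 and 3343 in Ccr2-/- monocytes, 3133, 2925 and 2229 in Ccl2-/- monocytes and 2129, 2279 and 2246 in wild type monocytes. Every Ccr2-/- array stood above every array of the other genotypes, and the lowest Ccl2-/- array, replicate 3, lay within the wild type range. Mean log2 levels were 11.85 ± 0.12 in Ccr2-/-, 11.42 ± 0.26 in Ccl2-/- and 11.11 ± 0.05 in wild type monocytes (SD, n = 3 arrays each). The rise in Ccr2-/- over wild type monocytes was 0.73 ± 0.13 on the log2 scale (SE, interval of the fold 1.36 to 2.04, limma adjusted p = 0.00604). Ccl2-/- monocytes differed from wild type by 0.30 (fold 1.23, interval 1.01 to 1.51, limma adjusted p = 0.368). Between the knockouts the difference was 0.43 (fold 1.35, interval 1.1 to 1.65, limma adjusted p = 0.115). Again only the ends of the order were separated by the test.

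S1pr1 (transcript cluster 10501586, chromosome 3) had the widest spread between arrays of the 5 receptors. Its intensity was 1085, 743 and 283 in Ccr2-/- monocytes, 283, 591 and 409 in Ccl2-/- monocytes and 601, 646 and 605 in wild type monocytes. Wild type arrays lay within 1.08-fold of each other, whereas the highest array was 2.09-fold the lowest in Ccl2-/- and 3.83-fold in Ccr2-/- monocytes. Within genotypes the SD of its log2 values was 0.66, and 0.667% of all genes had a wider spread, the median gene having an SD of 0.15. Ccr2-/- and wild type monocytes differed by -0.01 on the log2 scale (95% interval -1.05 to 1.03, limma adjusted p = 0.995), an interval that does not exclude a 2.04-fold rise or a fall to 0.481-fold. All 3 Ccl2-/- arrays lay below the wild type arrays, with a log2 difference of -0.59 (interval -1.63 to 0.45, limma adjusted p = 0.543), and Ccr2-/- differed from Ccl2-/- monocytes by 0.58 (interval -0.46 to 1.62, limma adjusted p = 0.528). With 1 array left out, the Ccl2-/- against wild type value was -0.33 when Ccl2-/- replicate 1 was dropped and -0.86 when Ccl2-/- replicate 2 was, and that of Ccr2-/- against Ccl2-/- ran between 0.17 without Ccr2-/- replicate 1 and 1.13 without Ccr2-/- replicate 3. For Ccr2-/- against wild type the range was -0.43 to 0.54.

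S1pr2 (transcript cluster 10591412, chromosome 9) read 1118, 1075 and 1212 in Ccr2-/- monocytes, 1302, 1332 and 1118 in Ccl2-/- monocytes and 1398, 1351 and 1289 in wild type monocytes. The Ccr2-/- arrays all lay below the wild type arrays, at a log2 difference of -0.25 ± 0.09 (SE, interval -0.45 to -0.05) that missed the threshold (limma adjusted p = 0.116). For Ccl2-/- against wild type the log2 difference was -0.11 (interval -0.31 to 0.09, limma adjusted p = 0.553), and between the knockouts -0.14 (interval -0.34 to 0.06, limma adjusted p = 0.441). S1pr2 and S1pr5 lie close together on chromosome 9, with 11 coding genes between them in the GRCm38.p6 gene order, and their differences from wild type had opposite signs in both knockouts. Ccr2, the deleted gene, is on the same chromosome, with 1056 coding genes between it and S1pr5.

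S1pr3 (transcript cluster 10405179, chromosome 13), whose gene product couples to several classes of G protein, was read at 284, 331 and 221 in Ccr2-/- monocytes, 415, 269 and 282 in Ccl2-/- monocytes and 262, 329 and 236 in wild type monocytes. The genotypes overlapped. Its log2 difference from wild type was 0.01 in Ccr2-/- (interval -0.48 to 0.49, limma adjusted p = 0.993) and 0.21 in Ccl2-/- monocytes (interval -0.28 to 0.69, limma adjusted p = 0.621). Ccr2-/- and Ccl2-/- monocytes differed by -0.20 (interval -0.69 to 0.28, limma adjusted p = 0.641).

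**Figure D2:**
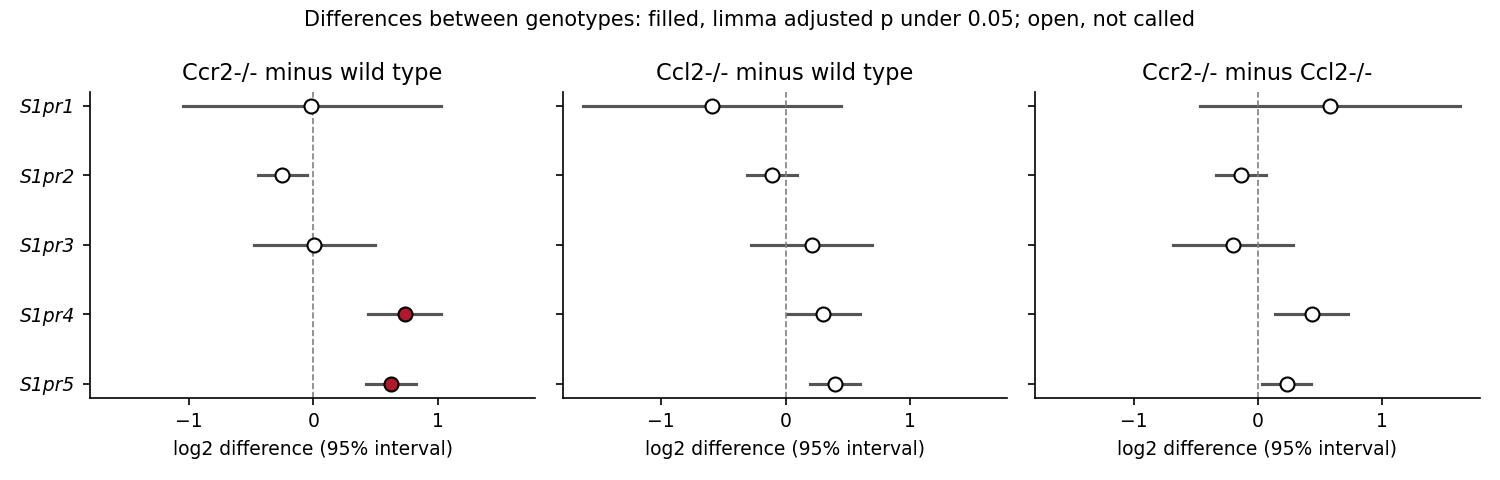
Log2 difference in intensity of each S1P receptor in the 3 comparisons, with its 95% interval from limma, filled points marking an adjusted p under 0.05. Only S1pr4 (0.73) and S1pr5 (0.63) in Ccr2-/- against wild type are filled, and the intervals of S1pr1 are the widest of the 5 receptors.

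In Ccr2-/- against wild type 3 of 5 receptors had arrays without overlap, S1pr4 and S1pr5 above and S1pr2 below, beside 33.9% of all genes. In Ccl2-/- against wild type, limma called 0 of 5 receptors after adjustment and 2, S1pr4 and S1pr5, at an unadjusted p under 0.05, which 13.1% of all genes had, and the arrays did not overlap for S1pr1 and S1pr5, beside 18.7% of all genes. Ccr2-/- against Ccl2-/- had 0 of 5 receptors called by limma and the same pair, S1pr4 and S1pr5, at an unadjusted p under 0.05 and without overlap, with 3.6% of all genes called, 18.6% at an unadjusted p under 0.05 and 23.6% not overlapping. The size limits that the methods name in place of a test, a ratio over 1.2 and a difference over 100 between group means, passed S1pr4 and S1pr5 in Ccr2-/- against wild type (15.8% of all genes), S1pr1, S1pr4 and S1pr5 in Ccl2-/- against wild type (11.6%) and S1pr1 and S1pr4 in Ccr2-/- against Ccl2-/- (12.6%). The comparisons share arrays and are not independent of each other.

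As to the series as a whole, Ccr2 intensity was 681 to 708 in Ccr2-/-, 6238 to 7822 in Ccl2-/- and 8110 to 9818 in wild type monocytes, so that Ccr2-/- arrays kept 0.0797 of the wild type level (limma adjusted p = 4.33e-06). No lower reading of the Ccl2 cluster was seen in Ccl2-/- monocytes, at 599 to 933 against 451 to 596 in wild type (limma adjusted p = 0.326), and since its probes may lie outside the deleted part it does not check that label. Ccl2-/- replicate 1 stood apart with a median of 430.8, the other arrays lying between 324.1 and 355.1, and the median log2 difference over all genes in Ccl2-/- against wild type was 0.08, or -0.03 after centring each array.

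Genes that mark NK cells and T cells moved with 3 of the receptors. All 16 of the 16 NK cell genes measured were called higher in Ccr2-/- against wild type, beside 4.91% of all genes, with a median log2 difference of 0.78. The calls of Gzma and Xcl1 held in 4 and 5 of 9 fits with 1 array left out, the others in all 9. The mean of the log2 values of the 16 genes lay above the wild type mean by 0.86, 0.79 and 0.79 on the Ccr2-/- arrays and by 0.56, 0.48 and 0.28 on the Ccl2-/- arrays. On the same scale S1pr4 stood at 0.80, 0.81 and 0.59 in Ccr2-/- and 0.50, 0.40 and 0.01 in Ccl2-/- monocytes. S1pr5 stood at 0.63, 0.65 and 0.60 in Ccr2-/- and 0.45, 0.41 and 0.33 in Ccl2-/- monocytes. The NK cell genes with the smallest p were Klra3 and Klrc1, receptors of the Ly49 and NKG2 families, at 2.02-fold and 2-fold of wild type, the T-box factor Tbx21 at 1.89-fold and the activating receptor Ncr1 at 1.61-fold. Ncr1 averaged 10650 ± 207 in Ccr2-/-, 8652 ± 617 in Ccl2-/- and 6602 ± 255 in wild type monocytes (SD, n = 3 arrays each). The mean log2 level of the list was 12.48 to 12.55 in Ccr2-/-, 11.97 to 12.25 in Ccl2-/- and 11.62 to 11.74 in wild type monocytes, and its lowest single reading was 271. In Ccl2-/- against wild type 1 of 16 passed the test (Klrc1, at 1.64-fold, called in 1 of 9 fits with 1 array left out), beside 0.16% of all genes, with a median of 0.46. In Ccr2-/- against Ccl2-/- 3 of 16 were called higher, beside 3.6% of all genes called in either direction, with a median of 0.31. These 3, Klra8, Klra3 and Tbx21, were called in 7, 2 and 1 of 9 such fits. The part of the NK cell genes in the receptor results was not tested.

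T cell genes ran with S1pr1. The 7 measured of 10 listed had a mean log2 value 0.75 and 0.18 above and 1.02 below the wild type mean on Ccr2-/- replicates 1, 2 and 3, where S1pr1 was 0.81 and 0.27 above and 1.12 below it. On Ccl2-/- replicates 1, 2 and 3 the T cell genes were at -1.08, -0.05 and -0.57 and S1pr1 at -1.13, -0.06 and -0.59. Cd3e, a chain of the T cell receptor complex, read 3280, 1932 and 587 in Ccr2-/- monocytes, 491, 1566 and 1054 in Ccl2-/- monocytes and 1782, 1555 and 1618 in wild type monocytes, so that Ccr2-/- replicate 1 was highest and Ccr2-/- replicate 3 and Ccl2-/- replicate 1 lowest, as for S1pr1. The mean log2 level of the list was 8.50 to 10.27 in Ccr2-/-, 8.44 to 9.48 in Ccl2-/- and 9.50 to 9.54 in wild type monocytes, with 205 as the lowest single reading. T cell genes had 0 of 7 called by limma in each comparison, and 0 at an unadjusted p under 0.05. Of all genes, 13.3% were called in Ccr2-/- against wild type, 0.16% in Ccl2-/- against wild type and 3.6% between the knockouts. At an unadjusted p under 0.05 these shares were 23.2%, 13.1% and 18.6%. With 7 genes of such spread, the counts do not show that T cell genes were unchanged. Cells stained for CD4 or CD8 had been depleted, and Cd4 read 278 to 1533 in Ccr2-/-, 262 to 870 in Ccl2-/- and 807 to 889 in wild type monocytes. As with the NK cell genes, the part of the T cell genes in the S1pr1 values was not tested.

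**Figure D3:**
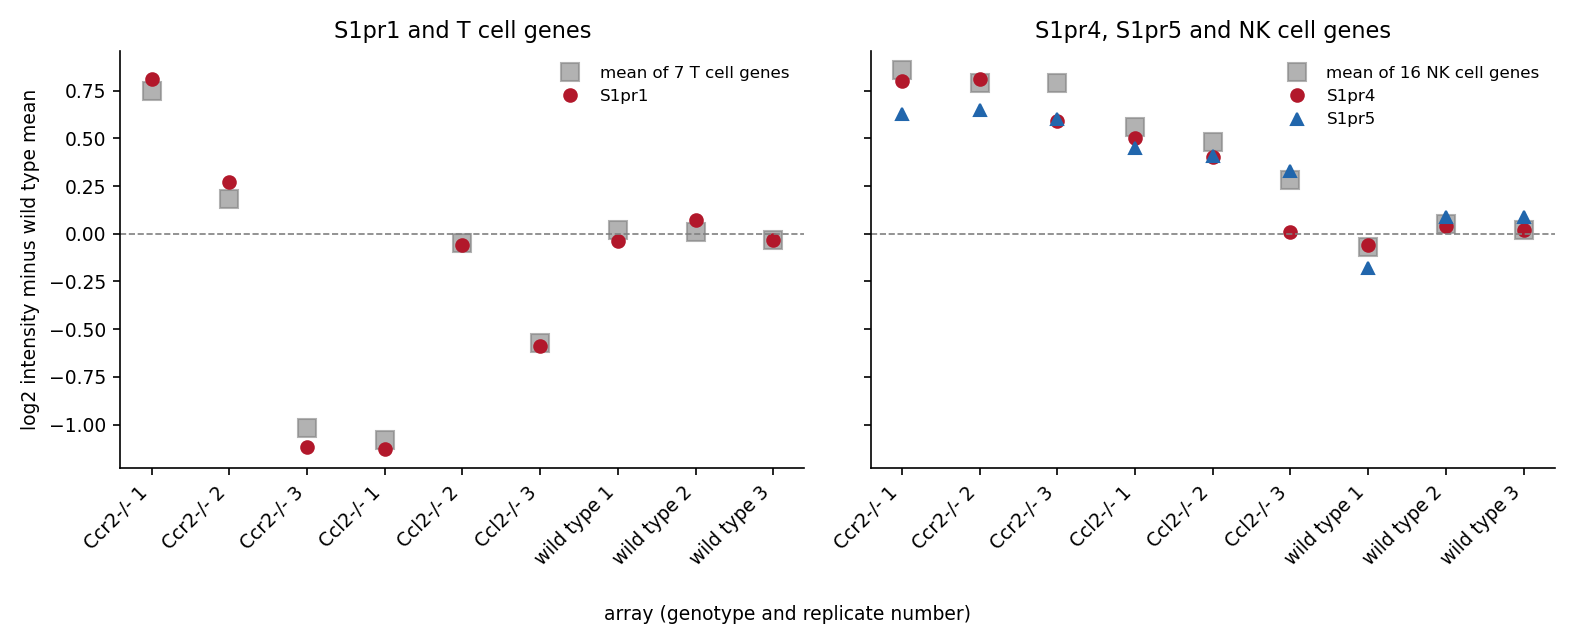
Log2 intensity minus the wild type mean on each of the 9 arrays, for S1pr1 with the mean of 7 T cell genes (left) and for S1pr4 and S1pr5 with the mean of 16 NK cell genes (right). S1pr1 and the T cell genes are both low on Ccr2-/- replicate 3 (-1.12 and -1.02) and Ccl2-/- replicate 1 (-1.13 and -1.08), and the NK cell genes lie between 0.79 and 0.86 on the Ccr2-/- arrays.

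The likeness of 2 patterns was measured as the root mean square log2 difference over the 9 arrays, each gene or list mean centred on its own mean. S1pr1 lay 0.0593 from the T cell list, the next list being that of eosinophils, basophils and mast cells at 0.462, and a flat profile lay at 0.602. S1pr4 was 0.095 from the NK cell list, with endothelial genes next at 0.278 and a flat profile at 0.331. For S1pr5 the distance to the NK cell list was 0.101, with the Ly-6Clo monocyte list next at 0.215 and a flat profile at 0.271. S1pr2 was nearer a flat profile (0.13) than any list. S1pr3 lay 0.173 from endothelial, 0.208 from platelet and 0.229 from neutrophil genes, and 0.261 from a flat profile. S1pr3 and the endothelial mean were both highest on Ccl2-/- replicate 1, at 0.60 and 0.47 above wild type, the array whose median stood apart. These values are a description over the 9 arrays and carry no test.

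By the same measure the genes most like S1pr5 were Klrd1, the CD94 chain of NK cell receptors (0.0527), Ggct, an enzyme of glutathione metabolism (0.0539), and Stip1, a co-chaperone of HSP70 and HSP90 (0.0578). Nearest to S1pr4 were Rasal3, a Ras GTPase-activating protein of blood cells (0.0508), A430078G23Rik (0.0526) and Gimap4, a GTPase of lymphocytes (0.0572). Their log2 differences in Ccr2-/- against wild type, 0.62 to 0.81, follow from that choice and are a description. Nearest to S1pr1 were Cd5 (0.11) and Cd8b1 (0.161), both on the T cell list, and Inpp4b, a lipid phosphatase (0.177), which were looked up after the S1pr1 values had been seen. Cd5 read 1030, 678 and 328 in Ccr2-/- monocytes, 325, 627 and 432 in Ccl2-/- monocytes and 640, 638 and 607 in wild type monocytes, with the same arrays highest and lowest as for S1pr1.

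Genes of the monocyte subsets were read in the same way. Of 8 Ly-6Chi monocyte genes measured, 7 were called lower in Ccr2-/- against wild type, beside 8.38% of all genes, with a median log2 difference of -1.45. Among them were F13a1, the coagulation factor XIII A chain (0.392-fold), and the deleted gene Ccr2. Chil3 and Vcan, also among the 7, were each called in 3 of 9 fits with 1 array left out, the others in all 9. Of 11 Ly-6Clo monocyte genes, 2 were called higher, beside 4.91% of all genes, with a median of 0.07 over the list. These were Cd9 (1.68-fold) and Spn (1.31-fold, called in 6 of 9 such fits). Cx3cr1, the fractalkine receptor that is high on Ly-6Clo monocytes, read 5343, 5489 and 5293 in Ccr2-/- monocytes, 5007, 5854 and 6145 in Ccl2-/- monocytes and 5750, 6523 and 6509 in wild type monocytes. Pan-monocyte genes had a lowest single reading of 963, and 4 of 7 were called lower in Ccr2-/- against wild type, beside 8.38% of all genes. Cd68, among these 4, was called in 5 of 9 fits with 1 array left out. Its call and that of Csf1r, also among the 4, were lost after centring. The mean log2 level of the pan-monocyte list was 12.27 to 12.46 on the Ccr2-/- arrays, where that of the NK cell list was 12.48 to 12.55. On the wild type arrays these levels were 12.75 to 12.8 and 11.62 to 11.74. Levels of different genes do not give shares of cells, so they do not check the labelled cell type. Monocytes is used here as the name on the sample labels. Csf1r, the receptor for CSF-1, read 6627 to 7343 in Ccr2-/-, 8506 to 9395 in Ccl2-/- and 9002 to 9194 in wild type monocytes. Each other list, those of B cells, neutrophils, platelets, endothelial cells and the eosinophil, basophil and mast cell group, had at most 1 gene called in Ccr2-/- against wild type, where 13.3% of all genes were called.

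The rest of the S1P pathway was taken from 8 lists holding 70 genes, of which 65 were measured. In Ccr2-/- against wild type 3 were higher and 13 lower, which is 24.6% beside the 13.3% of all genes, and 1 of the 13 is Ccr2 itself. In Ccl2-/- against wild type limma called 0 of 65, and 11 (16.9%) had an unadjusted p under 0.05, near the 13.1% of all genes. Ccr2-/- against Ccl2-/- gave 1 higher and 6 lower, 10.8% beside 3.6% of all genes, and apart from Ccr2 each of these calls was lost in at least 8 of the 9 fits that left out 1 array.

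Among regulators of receptor genes the T-box factors rose. Tbx21 encodes T-bet, which drives S1pr5 expression in mouse NK cells, and it read 7314, 7345 and 7049 in Ccr2-/- monocytes, 5812, 5555 and 4608 in Ccl2-/- monocytes and 3748, 4048 and 3714 in wild type monocytes. The genotypes did not overlap, in the same order as for S1pr5, which the mean of the NK cell list also followed. A link between Tbx21 and S1pr5 was not tested. The log2 difference of Tbx21 was 0.92 in Ccr2-/- against wild type (limma adjusted p = 0.000772) and 0.45 against Ccl2-/- monocytes (limma adjusted p = 0.0406). The call against Ccl2-/- held in 1 of 9 fits with 1 array left out, that without Ccl2-/- replicate 1, and was lost in the 6-array fit and with the replicate block, the adjusted p reaching 0.164. Eomes, the related factor of NK and memory T cells, read 5010, 4701 and 4728 in Ccr2-/- monocytes, 4440, 3903 and 3423 in Ccl2-/- monocytes and 2684, 2790 and 2829 in wild type monocytes, a log2 rise of 0.80 in Ccr2-/- over wild type (limma adjusted p = 0.00118). Both genes also stand on the NK cell list. Klf2, which switches on S1pr1 in mouse T cells, differed from wild type by 0.09 (limma adjusted p = 0.535), Zeb2, a partner of T-bet in NK cell maturation, by -0.11 (limma adjusted p = 0.291) and Nr4a1, the orphan receptor on which Ly-6Clo monocytes depend, by -0.08 (limma adjusted p = 0.703), each in Ccr2-/- monocytes.

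Over the synthesis, breakdown, export and ceramide lists together 33 genes were measured, of which 8 fell, 1 rose and 26 had a difference below 0, the median being -0.10 on the log2 scale beside 0.01 over all genes. Calls over all genes also lay more often below than above wild type, at 8.38% lower and 4.91% higher. Sphk2, 1 of the pair of sphingosine kinases, fell by 0.34 (limma adjusted p = 0.0215, called in 4 of 9 fits with 1 array left out), while Sphk1 differed by 0.09 (limma adjusted p = 0.857). Sgpl1, the S1P lyase, read 2399, 2313 and 2436 in Ccr2-/- monocytes, 2758, 2739 and 2950 in Ccl2-/- monocytes and 3197, 3132 and 3227 in wild type monocytes, with no overlap between genotypes. Its log2 difference was -0.42 in Ccr2-/- against wild type (limma adjusted p = 0.00258). The S1P phosphatase Sgpp1 was lower by a log2 difference of -0.37 (limma adjusted p = 0.00489), so 2 of 6 breakdown genes fell. Of 5 export and carriage genes limma called 0 after adjustment, beside 13.3% of all genes. At an unadjusted p under 0.05 there was 1, the transporter Abcc1 (-0.29), near the share of all genes, 23.2%. The S1P exporter Spns2 differed by -0.0065.

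Of 20 genes that supply ceramide and sphingosine, 5 were called lower and 1 higher in Ccr2-/- against wild type, which is 30% beside the 13.3% of all genes. Asah1, the acid ceramidase of lysosomes, read 2900, 3338 and 3269 in Ccr2-/- monocytes, 3978, 4156 and 4800 in Ccl2-/- monocytes and 5603, 5118 and 4928 in wild type monocytes, again with no overlap. It fell by 0.72 on the log2 scale in Ccr2-/- against wild type (limma adjusted p = 0.00179). The sphingomyelinase Smpd2 (-0.53), the alkaline ceramidase Acer3 (-0.59) and the ceramide synthase Cers6 (-0.40) fell as well, with limma adjusted p-values of 0.00265, 0.00544 and 0.00982. The Cers6 call was lost after centring. So was that of Degs1, also among the 5, which held in 4 of 9 fits with 1 array left out. Against Ccl2-/- monocytes Asah1 and Acer3 were lower by log2 differences of -0.44 and -0.49 (limma adjusted p = 0.0473 and 0.0373). Both calls held in 1 of 9 fits with 1 array left out, that without Ccl2-/- replicate 1, and were lost after centring, in the 6-array fit and with the replicate block, the adjusted p reaching 0.316 for Asah1 and 0.279 for Acer3.

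Receptors for related lipids included Cnr2, the cannabinoid receptor of leukocytes, which read 591, 558 and 605 in Ccr2-/- monocytes, 725, 883 and 952 in Ccl2-/- monocytes and 1115, 1115 and 1125 in wild type monocytes. The Cnr2 arrays did not overlap between genotypes and ran in the opposite order to S1pr5, with a log2 difference of -0.94 in Ccr2-/- against wild type (limma adjusted p = 0.000834). Lpar6, a lysophosphatidic acid receptor, fell by 0.39 (limma adjusted p = 0.0387, called in 3 of 9 fits with 1 array left out), which made 2 of 7 measured. Of 13 signalling partners 2 fell (15.4%, near the 13.3% of all genes called), Gnaq, the alpha subunit of Gq (-0.47, limma adjusted p = 0.00162), and Arrb1, an arrestin that takes receptors off the surface (-0.30, limma adjusted p = 0.0338, called in 3 of 9 such fits). Among 5 traffic receptors measured, the deleted Ccr2 was the 1 called. Ccr7, which guides T cells into lymph nodes, read 2438, 1744 and 785 in Ccr2-/- monocytes, 1065, 1534 and 1115 in Ccl2-/- monocytes and 1458, 1572 and 1484 in wild type monocytes, a spread like that of S1pr1.

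**Figure D4:**
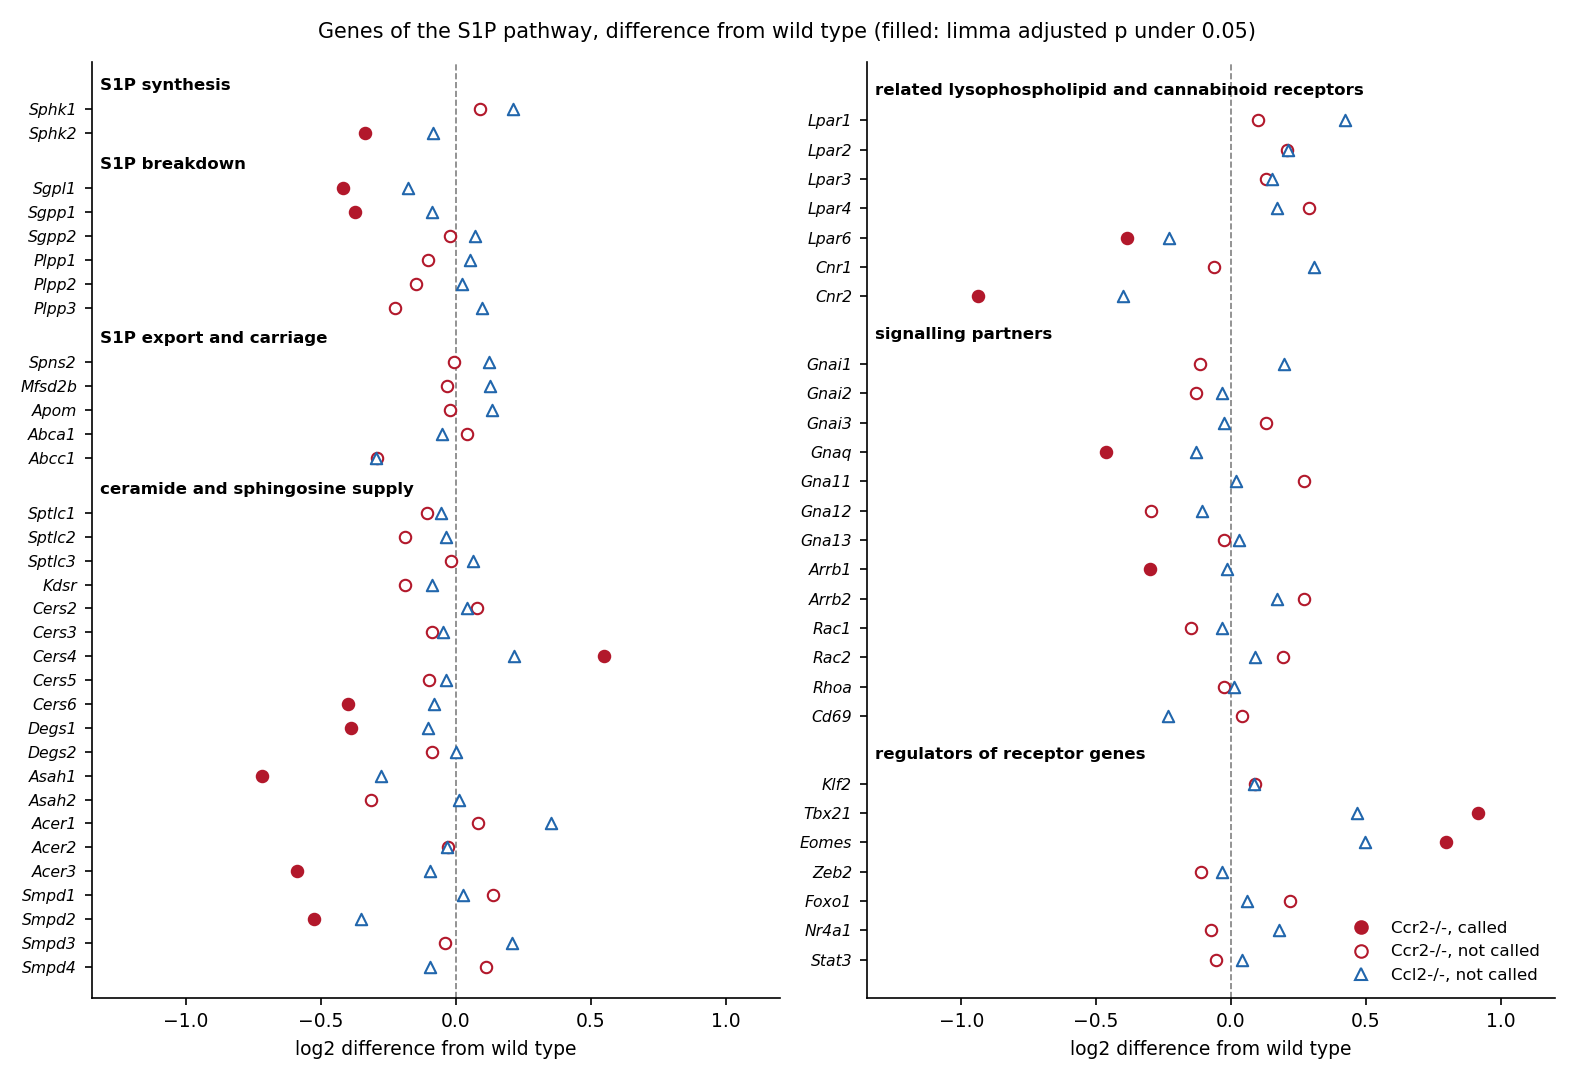
Log2 difference in intensity from wild type of the measured genes of 7 S1P pathway lists (traffic receptors not shown), with circles for Ccr2-/- and triangles for Ccl2-/- monocytes, filled where the limma adjusted p was under 0.05. Tbx21 (0.92) and Eomes (0.80) lie furthest right and Cnr2 (-0.94) and Asah1 (-0.72) furthest left among the Ccr2-/- points, and no triangle is filled.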

How the data were processed

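Monocytes of 3 Ccr2-/-, 3 Ccl2-/- and 3 wild type pools were compared. Per transcript cluster (35512) and array, 1 linear intensity was deposited, computed by the authors with dChip, whose version and normalization are not given in the sources used here. Arrays have no read depth, and their number, 3 per genotype, limits the precision. Left out were 12102 clusters without a symbol and 1621 with more than 1, and for 999 genes on more than 1 cluster the cluster of highest mean log2 value stood for the gene. Values below 1 (19) were set to 1 and log2 was taken. One linear model of genotype over all 9 arrays was fitted with limma 3.58.1 in R 4.3.3 (lmFit and eBayes, two-sided), with Benjamini-Hochberg adjustment over 19938 genes per comparison and a threshold of 0.05. The fit was tested on simulated data. Figures and promoter searches used Python 3.11.15 and matplotlib 3.10.9.

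Receptors and gene lists were chosen with earlier results of these data known. Named were every receptor, pathway genes called in any comparison (up to 4 per list by p in Ccr2-/- against wild type), up to 4 members per marker list, and the 3 genes most like each called receptor. Other genes named (Cd3e, Cd5, Cd8b1, Inpp4b, Ccr7, Cx3cr1, Spns2, Abcc1, Sphk1, Klf2, Zeb2, Nr4a1, Gzma, Xcl1, Klra8, Chil3, Vcan, Degs1) were chosen after their values were seen. Alternatives were quantile normalization, centring on array medians, removal of genes averaging 100 or less, an intensity trend, an offset of 50, averaged clusters, 6-array fits, a replicate block, leaving out single arrays, and the size limits that the methods name.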

Additional observations from a re-analysis of the deposited data

How the results depend on the processing

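In Ccr2-/- against wild type, S1pr4 and S1pr5 stayed called, or past the size limits, under all 18 alternatives, with limma adjusted p of 0.000895 to 0.0323 for S1pr4 and 0.000151 to 0.0133 for S1pr5. Values near 0 changed sign: S1pr3 was -0.0054 with quantile normalization and S1pr1 was 0.0045 with an offset of 50 and 0.19 on the means of the size limits. Leaving out 1 array gave -0.13 to 0.17 for S1pr3 and -0.43 to 0.54 for S1pr1, the highest without Ccr2-/- replicate 3. The 16 pathway genes called became 11 after centring (3 higher, 8 lower) and 22 with an intensity trend (5 higher, 17 lower). With 1 array left out they were 11 to 20.

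In Ccl2-/- against wild type, an intensity trend called 1 receptor, S1pr5 (0.40, limma adjusted p = 0.0227), and 3 pathway genes. The size limits, which involve no test, passed 3 receptors, S1pr1 (-0.53), S1pr4 (0.32) and S1pr5 (0.39), and 9 pathway genes. Leaving out 1 array gave 0 to 3 pathway genes, 3 without Ccl2-/- replicate 3.

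In Ccr2-/- against Ccl2-/-, S1pr4 was called, alone among the receptors (1 called), after centring (0.54, limma adjusted p = 0.0426) and with an intensity trend (0.43, limma adjusted p = 0.0497). With 1 array left out, S1pr4 ranged over 0.29 to 0.53, and 0 to 1 receptors were called (0.53, limma adjusted p = 0.04, without Ccl2-/- replicate 1). The size limits passed 2 receptors, S1pr1 (0.72) and S1pr4 (0.42). The 7 pathway genes became 3 with quantile normalization, 2 after centring, 14 with a trend, 15 by the size limits, 1 in the 6-array fit, 1 with the replicate block and 1 to 9 with 1 array left out, 1, Ccr2, whenever an array other than Ccl2-/- replicate 1 was absent. The cause was not tested. Centring also ended the calls of Sgpl1, Cers6 and Csf1r in Ccr2-/- against wild type (limma adjusted p = 0.0544, 0.0945 and 0.11). The calls of Degs1, Lpar6, Arrb1, Cd68 and Spn in that comparison were lost after centring as well. Quantile normalization ended those of Lpar6, Arrb1 and Chil3, and Spn was not called without any 1 of the Ccr2-/- arrays.

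Residuals of same-numbered arrays correlated at -0.18 to 0.56, so the numbers were not taken as pairs, and the replicate block changed no receptor call. The number of arrays is the limit on precision, and 3 arrays per genotype leave S1pr1 with an interval too wide to settle a direction.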
